A study of Mus musculus with 4 samples.

Results

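The Rab GTPases are the largest branch of the Ras superfamily of small G proteins, and they were followed here through the transcripts of the genes that encode them in mouse spleen cells treated with imatinib. Members were all array probes for mouse transcripts whose gene name is Rab followed by a number with optional further letters, leaving out the partner genes named Rab3gap, Rab3i and Rab11fip. The rule found 58 of the 31829 gene names on the array, represented by 82 of its 39429 probes. It did not use any measured value. Names are those of the array design, so that Rab1, Rab6, Rab7 and Rab7l1 stand for the genes that RefSeq or current usage calls Rab1a, Rab6a, Rab7a and Rab29.

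Spleen cells of female C57BL/6 mice aged 8 weeks were kept for 72 h with IL-4 and LPS, a pair of stimuli that activates B cells and starts class switching, and both groups received them. The imatinib group had 10 µM imatinib, an inhibitor of the ABL, KIT and PDGF receptor kinases, in the medium for these 72 h, and the control group had none. Each group had 2 samples, each hybridised to an Agilent 1-colour array. Nothing in the labels tells whether these were separate cultures or animals, so the p-values may measure technical spread alone. An exact permutation test of 2 arrays against 2 cannot give a two-sided p below 0.333, so the tests below come from a limma fit over all probes.

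A Rab protein is a switch that is active with GTP bound and inactive with GDP bound. Exchange factors (GEFs) turn it on at one membrane, GTPase activating proteins (GAPs) turn it off, and a GDP dissociation inhibitor (GDI) carries the inactive, prenylated protein through the cytosol. In the active state each Rab recruits its own effectors, such as tethers and motors, and so marks a step of membrane traffic between the endoplasmic reticulum (ER), the Golgi, endosomes, lysosomes, granules and the plasma membrane. In B cells these steps serve antigen uptake, receptor recycling and antibody secretion, and Rab7 has been linked to the induction of AID, the enzyme of class switching.

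The probes below are shown because they stand for the Rab gene with the largest rise and for genes of the degradative, plasma membrane and ciliary branches that fell, and because each can be read through in at least 1 frame without a stop. They are copied as deposited, 5′ to 3′, in lower case.
Rab20 (chromosome 8, probe A_51_P417854): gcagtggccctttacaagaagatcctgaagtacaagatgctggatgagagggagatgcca
Rab7 (chromosome 6, probe A_55_P2080895): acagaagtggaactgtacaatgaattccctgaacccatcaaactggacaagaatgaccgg
Rab8a (chromosome 8, probe A_55_P2174821): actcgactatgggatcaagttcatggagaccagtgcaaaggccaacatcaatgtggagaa
Rab28 (chromosome 5, probe A_55_P1998164): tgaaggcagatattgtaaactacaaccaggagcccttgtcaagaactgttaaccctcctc
Each has 60 bases. No Rab probe shared a run of 16 bases with a probe of another Rab gene. Of the 82 Rab probes, 55 shared no such run with the promoter window of any other gene, and 4 shared one with 10 or more other genes, against 1.92% of all probes on the array. These 4 are the tested probe of Rab27b, both tested probes of Rab3c and the dimmer tested probe of Rab33b.

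The arrays were alike in depth. With imatinib the 75th percentile of processed signal was 699 and 678, against 739 and 854 in control. Between 25018 and 26762 probes per array were well above background, and no spot was saturated. Marker genes of several cell types moved with the groups, while other lists were mixed. Plasma cell markers were split, with 2 of 5 higher and 2 lower, and NK cell markers had 2 of 4 tested higher and 1 lower. Among markers well above background on all 4 arrays, 1 of 3 for dendritic cells was lower and none higher. The 1 such erythroid marker was higher, and the 1 such stroma marker did not pass. All 12 T cell markers were higher with imatinib, and their summed signal, in units of the 75th percentile of the array, was 56.0 and 56.3 on the imatinib arrays, against 26.0 and 25.3 on the control arrays. Of 9 tested macrophage markers 5 were higher and none lower, with sums of 5.60 and 5.93 on the imatinib arrays, against 3.55 and 3.47 on the control arrays, while C1qa, C1qc and Fcgr1 had no tested probe. Of 9 B cell markers 1 was higher and 5 were lower, with sums of 336 and 342 on the imatinib arrays, against 383 and 357 on the control arrays. Of 5 neutrophil markers well above background on all 4 arrays 3 were higher and 1 was lower. Another tested marker, S100a9, was called higher but was not well above background on every array. With S100a9 the sums were 2.7 and 3 on the imatinib arrays, against 3.51 and 3.26 on the control arrays. Ly6g, the neutrophil marker called lower (log2 difference -0.59), held the largest part of these sums. Of 2 tested platelet and megakaryocyte markers 1 was higher, Pf4, with a log2 difference of 4.35. The other, Itga2b, did not pass and was not well above background on every array. Sums over both, for the most part Pf4, were 2.41 and 2.48 on the imatinib arrays, against 0.133 and 0.133 on the control arrays. The part of cell makeup in the results below was not tested, and in such a mixed sample fewer cells of a type and less RNA per cell cannot be told apart.

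To be tested, a probe had to be well above background on each array of 1 group or the other. By this filter 54 Rab genes (73 probes) were tested, and all 54 were well above background on all 4 arrays, so that none passed through 1 group alone. Rab36, Rab38, Rab40b and Rab9b were not well above background on any array. Where a gene had several tested probes, the one with the highest mean signal stood for it. Values are given as normalised log2 signal, meaning log2 processed signal less the 75th percentile of its array, so that 0 is the 75th percentile and the values of different probes are not to be set against each other.

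With imatinib 17 Rab genes rose, 13 fell and 24 did not pass (limma, Benjamini-Hochberg adjusted p under 0.05 over 25375 probes). Among all 20544 genes tested, 19.3% rose and 21.7% fell, against 31.5% and 24.1% of the tested Rab genes, a contrast that was not tested. The median log2 difference was 0.10 over the Rab genes and 0.01 over all genes. The groups did not overlap for 44 Rab genes, 25 higher and 19 lower with imatinib, against 72.6% of all genes. A rise of at least 2-fold was called for 6 Rab genes and a fall of that size for none, and among all genes these shares were 6.12% and 1.3%. Fewer Rab genes were called when any 1 array was left out. Such a fit has fewer residual degrees of freedom, and its lone sample is assumed to vary like the other group. The median log2 difference over the Rab genes was 0.12 without imatinib replicate 1 and 0.13 without imatinib replicate 2. It was 0.11 without control replicate 1 and 0.08 without control replicate 2. Scaling on 8 spike-in probes, which moved the median of all probes by -0.28, gave 10 higher and 22 lower. Under this scaling the rises of Rab19, Rab34 and Rab37 were short of 2-fold, at 0.882, 0.746 and 0.826, and the fall of Rab26 was -1.041. With the normexp background correction Rab17, Rab34 and Rab37 were short of 2-fold, at 0.696, 0.821 and 0.944.

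**Figure D1:**
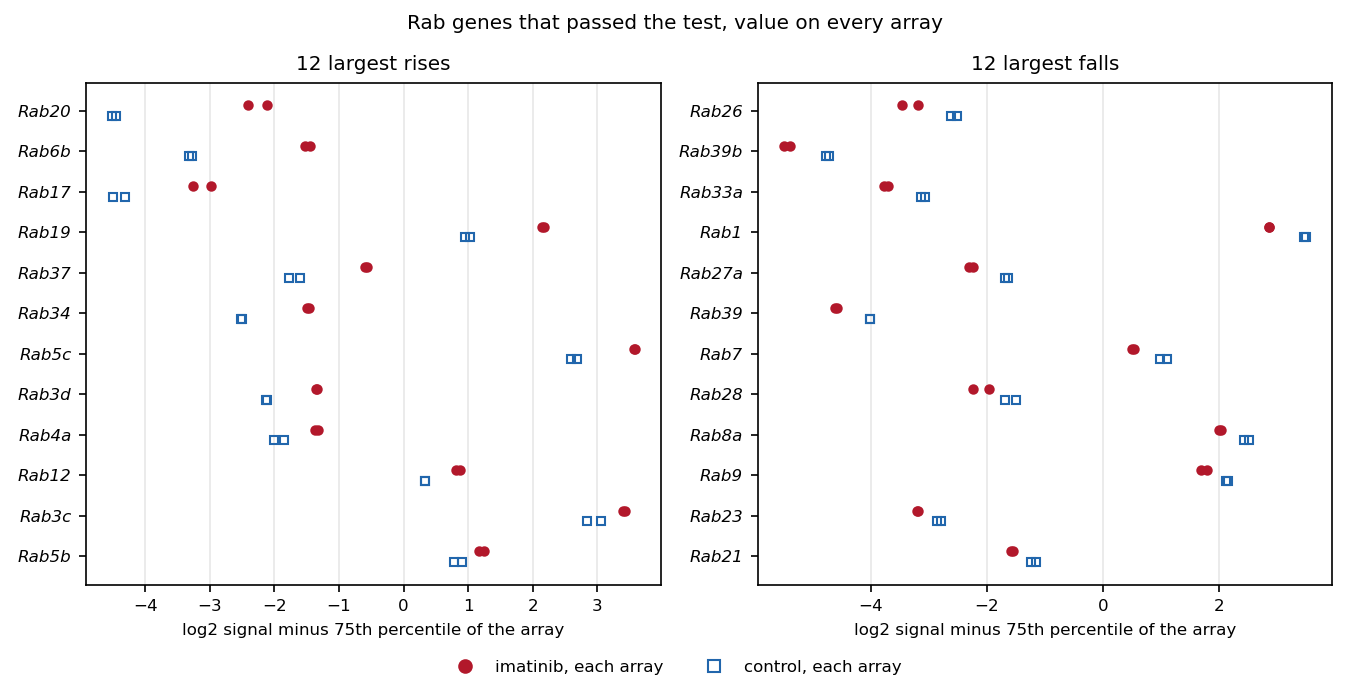
Normalised log2 signal (x axis, log2 processed signal less the 75th percentile of its array) of the 12 Rab genes with the largest rises and the 12 with the largest falls, with 1 filled circle for each imatinib array and 1 open square for each control array. In all 24 genes, which were chosen among called genes, the groups do not overlap, as was so for 72.6% of all genes tested. The gap is widest for Rab20, at -2.41 and -2.11 on the imatinib arrays against -4.51 and -4.46 on the control arrays.

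The early endosome and endocytosis group includes Rab20, the gene with the largest difference under the 75th percentile scaling. Of its 8 tested genes 4 rose and 1 fell, with log2 differences between -0.37 and 2.23. Rab20, which acts in endocytosis and in the maturation of phagosomes in macrophages, had a normalised log2 signal of -2.41 and -2.11 on the imatinib arrays, against -4.51 and -4.46 on the control arrays. It was thus 4.68-fold higher with imatinib (log2 difference 2.23, SE 0.12, adjusted p = 0.0016), and the imatinib arrays lay farther apart from each other than the control arrays. With the normexp background correction the difference was 1.19 (adjusted p = 1.1e-07), below the 1.29 of Rab6b. Rab17, known from transcytosis and recycling in epithelial cells, had -3.26 and -2.99 on the imatinib arrays, against -4.50 and -4.32 on the control arrays. The rise was 2.44-fold (log2 difference 1.29, SE 0.13, adjusted p = 0.0053), and its dimmer second probe differed by 0.42 without passing (adjusted p = 0.37). The difference of Rab17 was 0.70 with normexp (adjusted p = 5.7e-06) and 0.85 as the median over its probes (adjusted p = 0.045), both short of 2-fold.

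The 3 Rab5 genes, whose proteins drive fusion of early endosomes, received different calls. Rab5c had 3.57 and 3.58 on the imatinib arrays, against 2.69 and 2.59 on the control arrays, a 1.91-fold rise (log2 difference 0.94, SE 0.066, adjusted p = 0.0026). The imatinib arrays agreed closely and lay well above both control arrays. Rab5b had 1.24 and 1.17 on the imatinib arrays, against 0.91 and 0.78 on the control arrays, a 1.28-fold rise (log2 difference 0.35, SE 0.077, adjusted p = 0.029). Its other 3 tested probes differed by 0.09 to 0.29 and none passed, and its call ended without imatinib replicate 1 (adjusted p = 0.14), imatinib replicate 2 (adjusted p = 0.10) or control replicate 2 (adjusted p = 0.081). Nor did Rab5b pass with spike-in scaling (log2 difference 0.073, adjusted p = 0.55) or as the median over its probes (0.19, adjusted p = 0.091). Rab5a differed by -0.08 on its brighter probe (adjusted p = 0.39) and by -0.33 on its dimmer one (adjusted p = 0.019). Rab21, which takes part in integrin traffic, was the gene of this group that fell, with -1.54 and -1.59 on the imatinib arrays, against -1.24 and -1.16 on the control arrays. Its fall of 1.29-fold (log2 difference -0.37, SE 0.066, adjusted p = 0.018) was no longer called without imatinib replicate 1 (adjusted p = 0.086), imatinib replicate 2 (adjusted p = 0.11) or control replicate 2 (adjusted p = 0.061). Rab22a and Rab31, the other genes of the group, differed by -0.09 (adjusted p = 0.34) and 0.21 (adjusted p = 0.078).

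The Rab20 promoter is shown as the window of the gene with the largest rise. These are the 250 bases before its start in RefSeq (GRCm38.p6, chr8:11478641-11478890, minus strand), 5′ to 3′ along the gene, with the letters CACGTG in capitals.
Rab20 promoter: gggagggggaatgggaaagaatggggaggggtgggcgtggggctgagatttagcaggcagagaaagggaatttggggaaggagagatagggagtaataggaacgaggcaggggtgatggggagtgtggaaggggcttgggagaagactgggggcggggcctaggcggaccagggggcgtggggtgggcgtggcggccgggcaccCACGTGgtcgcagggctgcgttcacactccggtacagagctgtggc
CACGTG is the palindromic E-box that MYC and the lysosomal regulator TFEB can bind, and its first base lies 46 bases before the start. RefSeq windows of 300 bases, from 250 before to 50 after the start, were at hand for 48 of the 58 Rab genes, 60 windows in all. CACGTG was in 6 of these (10%), against 7.15% of all 32851 windows. The 6 genes were Rab20, which rose, Rab21, Rab23 and Rab27a, which fell, and Rab24 and Rab5a, which did not pass. Rab windows had a median GC content of 61.2%, against 52.7% in all windows. Their median count of CpG, which CACGTG contains, was 19.5, against 7. The part of base composition in these shares was not tested. The design text of the study names E2A, whose E-box is often written CAGGTG. On either strand CAGGTG was in 16.7% of Rab windows and 20.2% of all windows, and CAGCTG, another E-box, was in 23.3% and 16.3%. None of these motifs overlaps another as a string of letters, and a match is a description of the window only.

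Rab genes of ER and Golgi transport were called in both directions. Of 14 tested, 4 rose and 5 fell, with a median log2 difference of 0.10 and a range from -0.70 to 1.81. Rab6b, a Golgi Rab of retrograde transport best known from neurons, had -1.45 and -1.52 on the imatinib arrays, against -3.28 and -3.32 on the control arrays. This was a 3.51-fold rise (log2 difference 1.81, SE 0.063, adjusted p = 0.00077), far beyond the small spread within each group. Rab6, the broadly used form, had 1.71 and 1.66 on the imatinib arrays, against 1.53 and 1.54 on the control arrays (log2 difference 0.15, adjusted p = 0.12), and its dimmer probe differed by 0.28 (adjusted p = 0.040). Rab19 had 2.15 and 2.17 on the imatinib arrays, against 0.96 and 1.03 on the control arrays. Both groups were tight, and the rise was 2.24-fold (log2 difference 1.16, SE 0.061, adjusted p = 0.0014). The other genes of this group that rose were Rab33b (0.34, adjusted p = 0.017) and Rab2b (0.30, adjusted p = 0.029). Each of these 2 lost its call without imatinib replicate 1 (adjusted p = 0.096 and 0.16), without imatinib replicate 2 (0.12 and 0.11) and without control replicate 2 (0.060 and 0.064), and Rab2b also without control replicate 1 (0.081). With spike-in scaling the differences were 0.055 for Rab33b (adjusted p = 0.62) and 0.023 for Rab2b (adjusted p = 0.87).

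Rab1, which directs vesicles from the ER to the Golgi, was measured with little spread. It had 2.87 and 2.86 on the imatinib arrays, against 3.47 and 3.50 on the control arrays, a 1.54-fold fall (log2 difference -0.62, SE 0.057, adjusted p = 0.0046). Its close relative Rab1b had 2.58 and 2.44 on the imatinib arrays, against 2.46 and 2.06 on the control arrays, where the groups overlapped (log2 difference 0.25, adjusted p = 0.27). Rab33a had -3.77 and -3.71 on the imatinib arrays, against -3.07 and -3.14 on the control arrays, a 1.55-fold fall (log2 difference -0.63, SE 0.064, adjusted p = 0.0056). The groups of Rab33a did not overlap, and with normexp its difference was -0.25 (adjusted p = 0.013). Rab39b, mutated in a human X-linked form of intellectual disability, had -5.50 and -5.40 on the imatinib arrays, against -4.77 and -4.72 on the control arrays, a 1.63-fold fall (log2 difference -0.70, SE 0.069, adjusted p = 0.0052). Rab39 had -4.61 and -4.58 on the imatinib arrays, against -4.01 and -4.02 on the control arrays, a 1.49-fold fall (log2 difference -0.58, SE 0.057, adjusted p = 0.0054). Both Rab39 genes were dim, and with the normexp background correction their differences were -0.05 (adjusted p = 0.63) for Rab39b and -0.12 (adjusted p = 0.17) for Rab39. Rab30, a Golgi Rab, differed by -0.28 on each of its 2 probes (adjusted p = 0.027 and 0.039), and leaving out any 1 of the 4 arrays ended its call (adjusted p between 0.067 and 0.16). Rab2a, Rab18 and Rab43 did not pass.

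**Figure D2:**
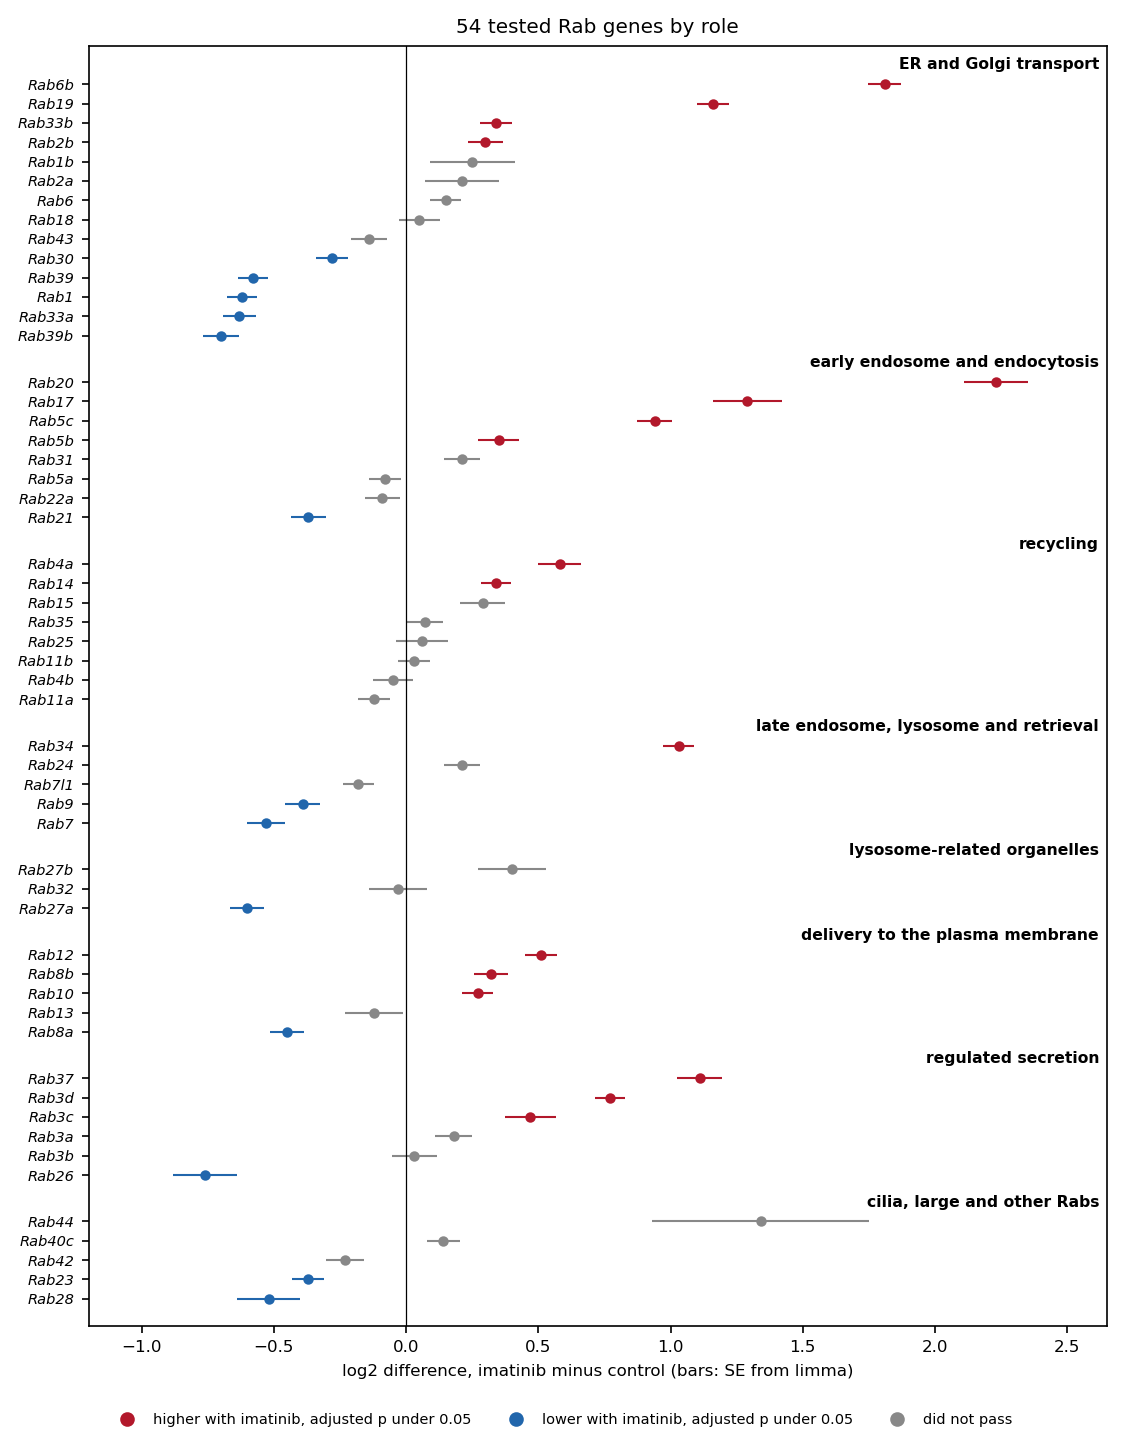
Log2 difference, imatinib minus control (x axis), of each of the 54 tested Rab genes, grouped by role, with bars for the SE from limma. Red points rose, blue points fell and grey points did not pass at an adjusted p under 0.05. Rises and falls occur together in 5 of the 8 role groups, the recycling group holds 2 rises and no fall, and Rab44 has a wide bar (SE 0.41).

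Of the 8 tested genes of the recycling group 2 rose and none fell, with differences between -0.12 and 0.58. Rab4a, a Rab of fast recycling from early endosomes, had -1.37 and -1.33 on the imatinib arrays, against -1.85 and -2.01 on the control arrays, a 1.50-fold rise (log2 difference 0.58, SE 0.080, adjusted p = 0.010). The call ended without imatinib replicate 1 (log2 difference 0.602) and without imatinib replicate 2 (0.561). With spike-in scaling the difference of Rab4a was 0.30 (adjusted p = 0.031). Rab4b had 1.03 and 1.17 on the imatinib arrays, against 1.14 and 1.16 on the control arrays, and the groups overlapped (log2 difference -0.05, adjusted p = 0.62). Rab14, which works between endosomes and the Golgi, rose by 0.34 (SE 0.057, adjusted p = 0.016), and the call ended without imatinib replicate 1 (adjusted p = 0.10), imatinib replicate 2 (adjusted p = 0.11) or control replicate 1 (adjusted p = 0.050). With spike-in scaling Rab14 differed by 0.057 (adjusted p = 0.63). The Rab11 genes of slow recycling did not pass, at -0.12 for Rab11a (SE 0.061) and 0.03 for Rab11b (SE 0.059). Rab35, Rab15 and Rab25, the other recycling genes, stood at 0.07, 0.29 and 0.06, all short of the threshold.

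In the late endosome and lysosome group 2 genes fell and 1 rose of 5 tested. Rab7, which takes late endosomes to lysosomes, had 0.50 and 0.53 on the imatinib arrays, against 0.98 and 1.10 on the control arrays, a 1.44-fold fall (log2 difference -0.53, SE 0.072, adjusted p = 0.010). Rab7 was no longer called without imatinib replicate 1 (log2 difference -0.515) or without imatinib replicate 2 (-0.544). Rab9, which returns mannose 6-phosphate receptors from late endosomes to the Golgi, had 1.80 and 1.70 on the imatinib arrays, against 2.13 and 2.15 on the control arrays, a 1.31-fold fall (log2 difference -0.39, SE 0.066, adjusted p = 0.016). All 3 of its probes fell, by 0.39 to 0.45, and 2 of them share a run of 37 bases. The call on its brightest probe ended without imatinib replicate 1 (adjusted p = 0.067), imatinib replicate 2 (adjusted p = 0.10) or control replicate 2 (adjusted p = 0.059). Rab34, which has been linked to lysosome position, macropinosomes and cilia, rose 2.04-fold, with -1.47 and -1.50 on the imatinib arrays, against -2.51 and -2.52 on the control arrays (log2 difference 1.03, SE 0.057, adjusted p = 0.0016). Both of its groups were very tight. With quantile, median and spike-in scaling and with normexp the rise of Rab34 was short of 2-fold, at 0.746 to 0.985. Rab24 (0.21) and Rab7l1 (-0.18) did not pass, though the dimmer probe of Rab7l1 did (-0.24, adjusted p = 0.043).

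Among the Rabs of lysosome-related organelles, which include melanosomes and lytic granules, 1 of 3 tested genes fell and none rose. Rab27a, which docks such granules at the plasma membrane and is mutated in the ashen mouse, had -2.23 and -2.30 on the imatinib arrays, against -1.64 and -1.69 on the control arrays. The fall was 1.52-fold (log2 difference -0.60, SE 0.064, adjusted p = 0.0061) and the groups did not overlap. Rab27b had -4.30 and -4.21 on the imatinib arrays, against -4.49 and -4.82 on the control arrays (log2 difference 0.40, adjusted p = 0.078), on a probe that shares runs of 16 bases with the promoter windows of 20 other genes. Rab32, a Rab of melanosomes and phagosomes, was nearly level (-0.03, SE 0.11).

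Of the 5 tested Rabs of delivery to the plasma membrane 3 rose and 1 fell. Rab12 was placed in this group although it is also known to steer transferrin receptor to lysosomes, and without it 2 of 4 genes rose and 1 fell. Rab12 had 0.88 and 0.81 on the imatinib arrays, against 0.33 and 0.34 on the control arrays, a 1.42-fold rise (log2 difference 0.51, SE 0.062, adjusted p = 0.0078). The rise was 0.23 and did not pass with spike-in scaling (adjusted p = 0.097), nor did it pass without imatinib replicate 1 (adjusted p = 0.059). Rab8a, which carries vesicles to the plasma membrane and the primary cilium, had 2.03 and 2.01 on the imatinib arrays, against 2.52 and 2.43 on the control arrays, a 1.37-fold fall (log2 difference -0.45, SE 0.065, adjusted p = 0.011). Its second probe fell too, by 0.69 (adjusted p = 0.0038), and the call on the first ended without imatinib replicate 1 (adjusted p = 0.069) and imatinib replicate 2 (adjusted p = 0.074). Rab8b had 3.13 and 3.04 on the imatinib arrays, against 2.78 and 2.76 on the control arrays, and so went the other way (log2 difference 0.32, SE 0.064, adjusted p = 0.024), as did its second probe (0.44, adjusted p = 0.013). With spike-in scaling Rab8b differed by 0.036 (adjusted p = 0.77). Without any 1 of the 4 arrays the first probe of Rab8b no longer passed (adjusted p between 0.063 and 0.14). Rab10, needed for delivery of the glucose transporter in fat cells, rose by 0.27 on its brighter probe (adjusted p = 0.027) and differed by -0.20 on the other (adjusted p = 0.071), and leaving out any 1 array ended the call (adjusted p between 0.066 and 0.16). With spike-in scaling Rab10 turned to -0.012 (adjusted p = 0.92), and as the median over its probes it differed by 0.037 (adjusted p = 0.64). Rab13 did not pass (-0.12, SE 0.11).

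The regulated secretion group had 3 rises and 1 fall among 6 tested genes, and a median log2 difference of 0.32. Rab37, first described in mast cells and found on secretory granules, had -0.56 and -0.60 on the imatinib arrays, against -1.60 and -1.77 on the control arrays, a 2.15-fold rise (log2 difference 1.11, SE 0.084, adjusted p = 0.0031). Its second probe rose by 1.04 but shares a run of 55 bases with the first. Rab3d, the Rab3 form of secretory granules outside neurons, had -1.35 and -1.34 on the imatinib arrays, against -2.13 and -2.11 on the control arrays, a 1.71-fold rise (log2 difference 0.77, SE 0.057, adjusted p = 0.0029). Its dimmer probe rose by 0.45 (adjusted p = 0.015), so both readings of Rab3d went the same way. With spike-in scaling the brighter probe differed by 0.49 (adjusted p = 0.0062). Of 6 mast cell and basophil markers 1, Tpsb2, was well above background on all 4 arrays, and it was higher (log2 difference 1.18, adjusted p = 0.0019). Cpa3 and Mcpt8 passed the filter only through the imatinib arrays, and the other 3 were not tested. Tpsb2 had -1.24 and -1.23 on the imatinib arrays, against -2.35 and -2.47 on the control arrays. The part of mast cells in the rises of this group was not tested.

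Rab3c, a synaptic vesicle Rab, was called higher on probes that share sequence with other genes. Its brightest probe had 3.43 and 3.40 on the imatinib arrays, against 3.06 and 2.84 on the control arrays, a 1.38-fold rise (log2 difference 0.47, SE 0.095, adjusted p = 0.025). The second called probe rose by 0.55 and shares 54 bases with the first, and both share runs of 16 bases with the promoter windows of 16 other genes and with probes for Bfar, F10 and Hccs. One such run, found in the windows of 15 other genes, is shown because it is what these probes share with other genes.
Rab3c shared run (chromosome 13, bases 5 to 20 of probe A_55_P2095854): tctacagagtgagttc
The third Rab3c probe, which shares a run with 1 other gene, was not well above background on any array, with -8.51 and -8.89 on the imatinib arrays, against -8.59 and -8.63 on the control arrays. The call also ended without imatinib replicate 1 (adjusted p = 0.11) and imatinib replicate 2 (adjusted p = 0.10), and with spike-in scaling (log2 difference 0.18, adjusted p = 0.16). Rab26, found on granules of exocrine glands, had -3.46 and -3.18 on the imatinib arrays, against -2.61 and -2.52 on the control arrays. Its fall was 1.69-fold (log2 difference -0.76, SE 0.12, adjusted p = 0.013), and without control replicate 2 it was not called (adjusted p = 0.060). This was the largest fall of the family under the 75th percentile scaling, but with normexp it was -0.37 (adjusted p = 0.0013), against -0.60 for Rab1, and with quantile normalization Rab39b fell slightly more (-0.900 against -0.893). Rab3a (0.18, adjusted p = 0.11) and Rab3b (0.03, adjusted p = 0.79) did not pass.

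The last group, of ciliary, large and other Rabs, had 2 falls and no rise among 5 tested genes. Rab28, known from the photoreceptor cilium, had -1.97 and -2.23 on the imatinib arrays, against -1.68 and -1.49 on the control arrays, a 1.43-fold fall (log2 difference -0.52, SE 0.12, adjusted p = 0.037). The spread within both groups was wide, and leaving out any 1 of the 4 arrays ended the call (adjusted p between 0.056 and 0.13). Rab23, a ciliary Rab that restrains Hedgehog signalling, had -3.18 and -3.20 on the imatinib arrays, against -2.85 and -2.79 on the control arrays, a 1.30-fold fall (log2 difference -0.37, SE 0.060, adjusted p = 0.014). It was not called with normexp background correction (log2 difference -0.16, adjusted p = 0.073), nor without imatinib replicate 1 (adjusted p = 0.086), imatinib replicate 2 (adjusted p = 0.094) or control replicate 2 (adjusted p = 0.050). Rab44, a large Rab with calcium-binding motifs, showed a large difference without passing. It had -5.14 and -4.08 on the imatinib arrays, against -5.72 and -6.17 on the control arrays (log2 difference 1.34, SE 0.41, adjusted p = 0.065), and its imatinib arrays lay far apart from each other. It was called with normexp, where the difference was 0.41 (adjusted p = 0.0027), with spike-in scaling (1.055, adjusted p = 0.030), with the trend and robust variance model (adjusted p = 0.0087) and without imatinib replicate 1 (1.87, adjusted p = 0.025). Rab40c and Rab42 stood at 0.14 and -0.23, short of the threshold.

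**Figure D3:**
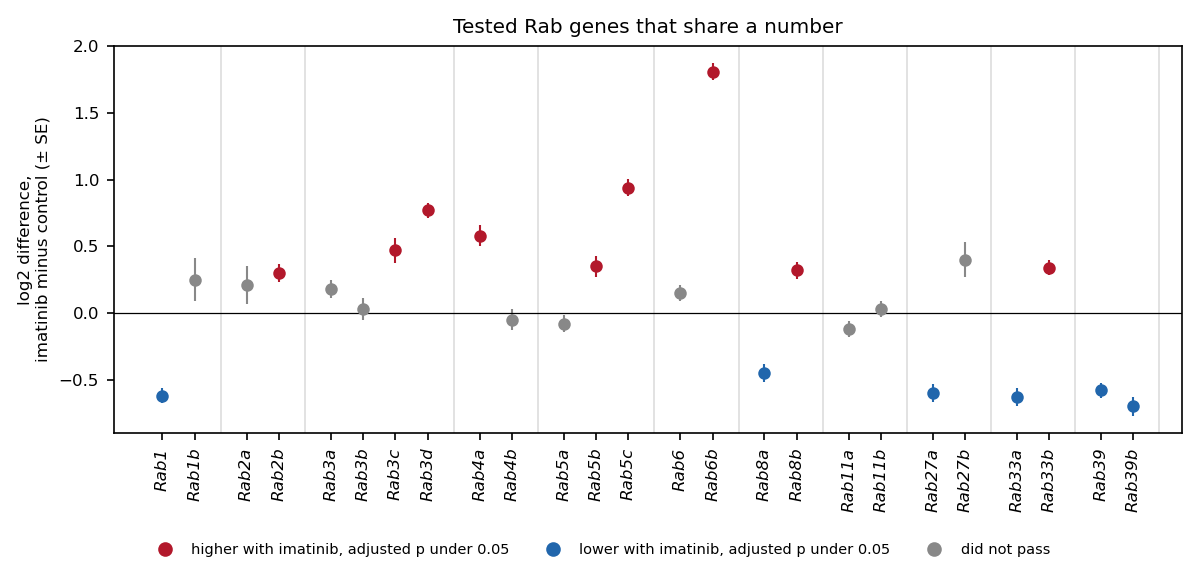
Log2 difference, imatinib minus control (y axis, bars are the SE from limma), of the 25 tested Rab genes in the 11 families that share a number. Red points rose, blue points fell and grey points did not pass. Rab8a and Rab33a lie below 0 and Rab8b and Rab33b above it, both Rab39 genes lie below 0, and the widest gap within a family is 1.66, between Rab6b and Rab6.

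Close relatives, taken as tested Rab genes that share a number, could be compared on 25 genes in 11 families. In 2 families a relative rose and another fell, namely Rab8b against Rab8a and Rab33b against Rab33a, and the difference between the 2 log2 differences was 0.77 for Rab8 and 0.97 for Rab33. A shift common to all probes, such as that of spike-in scaling, leaves these gaps as they are, but with spike-in scaling the rises themselves shrank to 0.036 for Rab8b and 0.055 for Rab33b and did not pass. In 7 families at least 1 gene passed and another did not, and the gaps were 1.66 between Rab6b and Rab6, 1.02 between Rab5c and Rab5a, 1.00 between Rab27b and Rab27a, 0.87 between Rab1b and Rab1 and 0.63 between Rab4a and Rab4b. In the Rab2 family the called Rab2b and the uncalled Rab2a lay 0.09 apart, and in the Rab3 family called and uncalled genes lay 0.29 to 0.74 apart. The Rab27 gap and some of the Rab3 gaps rest on the Rab27b and Rab3c probes that share runs with other genes. Normexp narrowed the Rab6, Rab27 and Rab33 gaps but left those of Rab1, Rab5c to Rab5a and Rab8 nearly as they were. With normexp Rab6b differed by 1.287 and Rab6 by 0.159, and Rab33a by -0.253 and Rab33b by 0.305. Whether the members of a family differ in response was not tested. The Rab39 family alone had all its genes called in 1 direction, and the Rab11 family alone had none called.

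**Figure D4:**
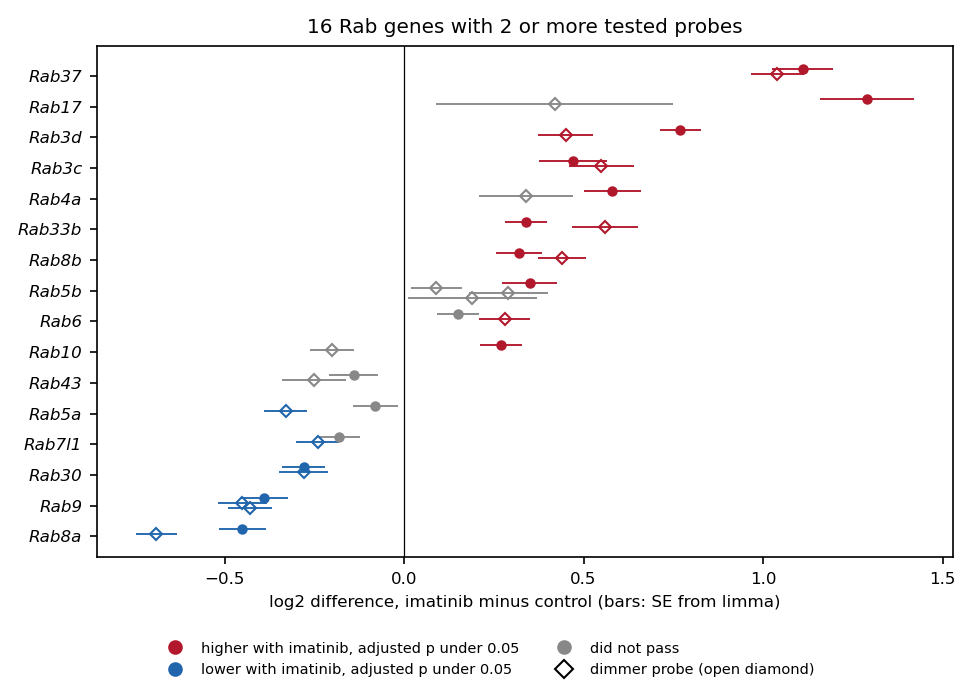
Log2 difference, imatinib minus control (x axis, bars are the SE from limma), of every tested probe of the 16 Rab genes with 2 or more. Filled circles are the brightest probe of a gene and open diamonds its dimmer probes, with red for a rise, blue for a fall and grey for no call. Only the probes of Rab10 lie on both sides of 0, at 0.27 and -0.20.

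For 16 Rab genes with 2 or more tested probes the probes could be set against each other by their differences. No gene had probes called in opposite directions. Rab30, Rab33b, Rab37, Rab3c, Rab3d, Rab8a, Rab8b and Rab9 had all of their tested probes called in 1 direction, of which those of Rab37, Rab3c and Rab9 include overlapping sequences. Rab33b rose by 0.56 on its dimmer probe, which ends in a run of 16 bases found in the promoter windows of 12 other genes.

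The genes that handle Rab proteins were followed in 4 lists, counted here over those well above background on all 4 arrays. Among all genes so measured 18.3% rose and 22.5% fell. With spike-in scaling, which moved the median of all probes by -0.28, falls outnumbered rises in each of the 4 lists. The balance of rises and falls given below thus depends on the scaling. Of 8 genes for prenylation, escort and GDI, 2 rose and none fell. Rabac1, a prenylated Rab acceptor of Golgi membranes, had 4.68 and 4.77 on the imatinib arrays, against 4.33 and 4.20 on the control arrays (log2 difference 0.46, adjusted p = 0.015). Its call ended without imatinib replicate 1 (adjusted p = 0.065), imatinib replicate 2 (0.089) or control replicate 2 (0.052), and with spike-in scaling (log2 difference 0.18, adjusted p = 0.12). Chm, which encodes the Rab escort protein REP-1, had -3.39 and -3.40 on the imatinib arrays, against -3.62 and -3.64 on the control arrays (log2 difference 0.23, adjusted p = 0.038), and this turned to -0.05 with spike-in scaling. Its call also ended with normexp (0.12, adjusted p = 0.18), quantile normalization (0.06, adjusted p = 0.52), median centring (adjusted p = 0.060) and the trend and robust variance model (adjusted p = 0.14). Leaving out any 1 of the 4 arrays ended the call for Chm (adjusted p between 0.078 and 0.19). Gdi2, which encodes a GDI, and the prenyltransferase subunits Rabggta and Rabggtb did not pass, with log2 differences from -0.21 to -0.17.

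Of 29 exchange factors 6 rose and 4 fell. Dennd1b, an exchange factor for Rab35, had -2.33 and -2.30 on the imatinib arrays, against -2.92 and -2.92 on the control arrays (log2 difference 0.61, adjusted p = 0.0049). With spike-in scaling the difference of Dennd1b was 0.33 (adjusted p = 0.023). Rab35 itself differed by 0.07 and did not pass. Sbf2, an exchange factor for Rab21, had -2.74 and -2.76 on the imatinib arrays, against -3.29 and -3.20 on the control arrays (log2 difference 0.49, adjusted p = 0.0090), while Rab21 fell. Dennd3, an exchange factor for Rab12, had -3.03 and -3.05 on the imatinib arrays, against -2.62 and -2.39 on the control arrays (log2 difference -0.53, adjusted p = 0.020), while Rab12 rose. Ccz1, partner of Mon1 in the complex that activates Rab7, had 2.53 and 2.55 on the imatinib arrays, against 2.97 and 3.07 on the control arrays (log2 difference -0.48, adjusted p = 0.010), and Rab7 fell as well. The calls of Sbf2, Dennd3 and Ccz1 ended without imatinib replicate 1 (adjusted p = 0.063, 0.085 and 0.069) and without imatinib replicate 2 (adjusted p = 0.060, 0.092 and 0.065), and that of Sbf2 also with spike-in scaling (0.12). With normexp the differences were 0.30 for Sbf2 and -0.28 for Dennd3, both called, and with spike-in scaling they were -0.81 for Dennd3 and -0.76 for Ccz1. The 2 Mon1 genes did not pass (-0.12 for Mon1a and 0.03 for Mon1b).

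Of 34 GTPase activating proteins 11 rose and 4 fell, with a median difference of 0.15, but falls outnumbered rises with spike-in scaling. Tbc1d30 had -0.22 and -0.14 on the imatinib arrays, against -2.76 and -2.56 on the control arrays, which gave the largest rise of this list (log2 difference 2.48, SE 0.096, adjusted p = 9e-04). Sgsm2 had -0.10 and -0.14 on the imatinib arrays, against -1.01 and -1.14 on the control arrays (log2 difference 0.95, adjusted p = 0.0032). Both groups of Sgsm2 were tight, and its protein is known to act on Rab32 and Rab38. Tbc1d9 had -3.16 and -3.32 on the imatinib arrays, against -4.36 and -4.06 on the control arrays (log2 difference 0.97, adjusted p = 0.010), and was no longer called without imatinib replicate 1 (adjusted p = 0.050), while with normexp the difference was 0.51 (adjusted p = 8.8e-05). Tbc1d4, known as AS160 and a regulator of Rab10 in insulin-driven glucose transport, had -1.10 and -1.27 on the imatinib arrays, against -2.06 and -2.09 on the control arrays (log2 difference 0.89, adjusted p = 0.0047). With the median over its probes, Tbc1d4 differed by 0.28 (adjusted p = 0.054).

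Of 34 Rab effectors 14 rose and 7 fell, with a median difference of 0.21, and here too falls outnumbered rises with spike-in scaling. The Rab11 effectors Rab11fip4 and Rab11fip5, which link recycling endosomes to motors and tethers, were among the largest rises. Rab11fip4 had -2.27 and -2.20 on the imatinib arrays, against -4.07 and -4.26 on the control arrays (log2 difference 1.93, SE 0.091, adjusted p = 0.0012), and Rab11fip5 had -1.87 and -1.94 on the imatinib arrays, against -3.73 and -3.78 on the control arrays (log2 difference 1.85, SE 0.064, adjusted p = 0.00077). Neither Rab11 gene itself passed. The synaptotagmin-like effectors of Rab27 moved in opposite directions. Sytl1 had 0.95 and 0.92 on the imatinib arrays, against -0.61 and -0.78 on the control arrays (log2 difference 1.63, SE 0.084, adjusted p = 0.0014). Sytl3 had 1.08 and 1.10 on the imatinib arrays, against 3.56 and 3.43 on the control arrays (log2 difference -2.40, SE 0.073, adjusted p = 0.00074), a larger fall than that of any Rab gene. These 4 effectors kept their calls under all 15 alternatives, though with normexp the difference of Rab11fip4 was 1.11. Sytl2, Sytl4, Sytl5, Mlph, Myrip and Exph5, further Rab27 effectors, had no tested probe.

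**Figure D5:**
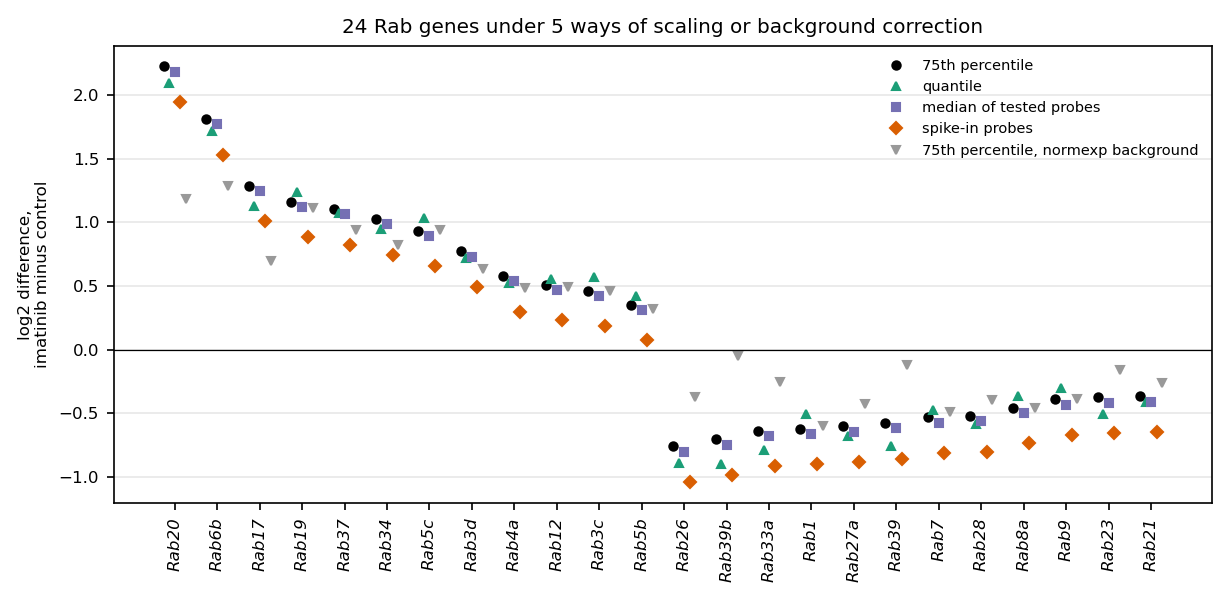
Log2 difference, imatinib minus control (y axis), of the 12 Rab genes with the largest rises and the 12 with the largest falls under 4 scalings and 1 other background correction. No difference changes sign. Spike-in scaling (orange diamonds) places each gene about 0.28 lower than the 75th percentile scaling (black circles), and normexp (grey triangles) brings the dim genes Rab39b and Rab39 close to 0, at -0.05 and -0.12.

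The calls of 22 Rab genes held in direction under 75th percentile, median, quantile and spike-in scaling. These were the 9 rises of Rab17, Rab19, Rab20, Rab34, Rab37, Rab3d, Rab4a, Rab5c and Rab6b and all 13 falls. Spike-in scaling places each gene about 0.28 lower, so it favours falls, and that they held under it is no separate support. With normexp, which is not among these scalings, the falls of Rab39b, Rab39 and Rab23 did not pass. With spike-in scaling 7 of the falls were more than 1.5 times as large, those of Rab7, Rab8a, Rab9, Rab21, Rab23, Rab28 and Rab30, at -0.56 to -0.81. Without a filter on dim probes Rab2b, Rab3c, Rab5b, Rab8a, Rab8b, Rab9, Rab10, Rab14, Rab21, Rab23, Rab26, Rab28, Rab30 and Rab33b lost their calls, and with the replicate block so did these genes other than Rab3c, Rab8a and Rab26. Over all 15 alternatives, Rab20, Rab6b, Rab17, Rab19, Rab37, Rab34, Rab5c, Rab3d, Rab33a, Rab1 and Rab27a were called in every one that was run. Their largest adjusted p over the alternatives ran from 0.0094 for Rab6b to 0.047 for Rab27a.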

How the data were processed

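RNA of 4 samples of mouse spleen cells, 2 with imatinib and 2 control, was measured on Agilent 1-colour arrays of design 026655, all on 1 slide and of 1 scan time, with control arrays at positions 1 and 3 and imatinib arrays at positions 2 and 4, so that no slide or scan block could be fitted. Per the file headers, the authors read each spot as an intensity in Feature Extraction 9.1.3.1, whose processed signal is already background-subtracted. The deposited value table holds log2 values, and checking it against the scanner files showed it to be log2 of the processed signal minus 1 constant per array for 99.88% to 99.93% of the probes (within 0.01). Its columns have medians of -3.99 and -3.92 (imatinib) and -4.10 and -4.17 (control).

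Starting from the scanner values, spots for mouse transcripts were kept, outlier-marked spots were dropped, log2 processed signals were averaged per probe, and each array was centred on its 75th percentile. Probes well above background on both arrays of a group were tested, 25375 in all after 92 were left out for a marked spot. Groups were compared with limma 3.58.1 in R 4.3.3 (lmFit and eBayes, two-sided, group as the only term, 2 residual and 2.05 prior degrees of freedom), and p-values were adjusted over all tested probes by Benjamini-Hochberg with a threshold of 0.05. SE and differences are on the log2 scale. The script was tested on simulated data. A gene was represented by its brightest tested probe without a repeat run of 12 or more bases. A probe with such a run stood for a gene only where it had no other tested probe. None of the Rab probes holds such a run, but some probes of the pathway lists do. Rabgap1, for one, differed by 2.34 on its brightest probe, against 0.51 on the probe used. Having 4 arrays limits the precision of each value.

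The members, role groups, pathway lists and marker lists were chosen with earlier results of these data known. Values on every array are given for the 12 largest rises and 12 largest falls among called Rab genes and for up to 4 members of each pathway list with the largest called change, and for relatives of these where they are compared. Rab44 was added after its values were seen. Promoter windows are RefSeq's for GRCm38.p6, and probe chromosomes come from the RefSeq gene table of that build. Cross-hybridisation was looked at only as shared runs of 16 bases. Protein sequences and a genome were not used here. Same-numbered replicates did not deviate together (correlation -0.0695 of the deviations of imatinib 1 and control 1 from their group means). With 2 arrays per group this cannot tell whether the numbers pair cultures or animals, and the labels do not say.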

Additional observations from a re-analysis of the deposited data

How the results depend on the processing

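In all 15 alternatives were run. Of the 360 values of the 24 Rab genes with the largest changes under them, 314 kept direction and call, 46 kept direction but not the call and 0 changed sign. The replicate block, the trend and robust variance model, both changes of the filter and the brightest probe leave these differences as they were. No sign could change under these alternatives. The brightest probe repeats the main fit for the Rab genes, so it could not end a call either. Against 17 Rab genes higher and 13 lower, spike-in scaling gave 10 and 22 (all probes 2802 and 11739, against 4905 and 5717) and turned the median of the Rab genes to -0.18 beside a shift of -0.28 of all probes. Testing all probes without a filter gave 10 and 6 (all probes 2837 and 2134). With the replicate block the counts were 11 higher and 8 lower, and 3509 of all probes were lower. The replicate numbers pair nothing in the labels, and fewer residual degrees of freedom go with this fit, as with leaving out an array. Leaving out each array in turn gave 9 to 15 Rab genes higher and 6 to 11 lower, and 2417 to 4706 of all probes higher and 1555 to 4172 lower, with a lone sample assumed to vary like the other group. Without imatinib replicate 1 the counts were 9 and 6, without imatinib replicate 2 also 9 and 6, and without control replicate 2 they were 12 and 7. Normexp correction gave 23 and 11, quantile normalization 20 and 14, median centring 17 and 14, a trend and robust variance model 21 and 14, the median over probes 16 and 14, and the deposited table, the filter on all 4 arrays and the brightest probe each 17 and 13. Of 120 counts over the pathway lists, 76 stayed within 1.5 times, and with spike-in scaling falls outnumbered rises in every list. The causes were not tested, and dim probes near background, such as those of Rab39b and Rab44, limit what can be said of these genes.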
